A study of Mus musculus with 2 samples.

Results

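The basement membrane genes followed here are 10 of the 50768 genes counted in 2 single-cell RNA sequencing (scRNAseq) libraries of mouse salivary glands: *Col4a1*, *Col4a2*, *Lama4*, *Lama5*, *Lamb1*, *Lamc1*, *Nid1*, *Nid2*, *Hspg2* and *Sparc*. They were selected on the summed UMI level of core extracellular matrix (ECM) genes, which was already known to be lower in NOD endothelial cells of these libraries. The endothelial strain difference is therefore the reason for the choice and is described without a test. The levels were read in endothelial cells (*Pecam1* and *Cdh5*), fibroblasts (*Pdgfra* and *Dcn*) and mural cells (*Rgs5* and *Notch3*), each taken as barcodes with at least 2 unique molecular identifiers (UMIs, tags that let each captured RNA molecule be counted only once) of the marker pair.

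The study compared the NOD/ShiLtJ mouse (genotype NOD/ShiltJ in the labels, NOD below), an inbred strain that develops autoimmune diabetes and a Sjögren-like disease of the salivary gland, with the outbred CD1 mouse as control. Each strain gave 1 library from the pooled submandibular and sublingual glands of untreated female mice at 20 weeks. The labels give 3 mice to a pool and the methods 4, and neither states whether the pooled NOD mice were diabetic. In both libraries cells that carried EpCAM (epithelial) or Ter119 (red blood) and dead cells had been depleted. Strain, pool of mice and library cannot be told apart in this design, CD1 is not the parent strain of NOD, and with 1 library each no strain difference is tested. All intervals below are 95% intervals for counting error only and leave out the variation between mice.

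The basement membrane is the thin sheet of matrix on which endothelium and epithelium rest and which also wraps mural cells. Type IV collagen trimers and laminin trimers each form a network, nidogen and the heparan sulfate proteoglycan perlecan tie the networks together, and the collagen-binding glycoprotein SPARC takes part in handling type IV collagen. In small blood vessels the endothelial cells and the pericytes around them both contribute to the sheet that lies between them.

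*Col4a1* and *Col4a2* encode the α1 and α2 chains of the most widespread type IV collagen, which assemble in 1 trimer, and the genes lie head to head on mouse chromosome 8. In the RefSeq tables for build GRCm38.p6 their annotated starts are 21 bases apart, and the 300-base windows around the starts (250 bases before to 50 after) share 78 bases. These windows are printed because those of the pair overlap around the starts, and those of *Lamb1* and *Sparc* because these genes had the lowest NOD levels relative to CD1 in endothelial cells. Each is written 5′ to 3′ on the strand of its gene. Capitals mark CCAAT or its reverse complement ATTGG, and GGGCGG (a GC box) or its reverse complement CCGCCC.

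Col4a1, chr8:11312777-11313076, minus strand: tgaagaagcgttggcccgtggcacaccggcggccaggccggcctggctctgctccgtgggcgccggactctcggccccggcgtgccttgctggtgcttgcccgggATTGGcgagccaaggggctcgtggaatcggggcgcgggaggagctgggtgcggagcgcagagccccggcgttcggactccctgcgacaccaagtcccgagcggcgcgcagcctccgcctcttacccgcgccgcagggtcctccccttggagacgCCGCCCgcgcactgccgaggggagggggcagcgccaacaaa
Col4a2, chr8:11312555-11312854, plus strand: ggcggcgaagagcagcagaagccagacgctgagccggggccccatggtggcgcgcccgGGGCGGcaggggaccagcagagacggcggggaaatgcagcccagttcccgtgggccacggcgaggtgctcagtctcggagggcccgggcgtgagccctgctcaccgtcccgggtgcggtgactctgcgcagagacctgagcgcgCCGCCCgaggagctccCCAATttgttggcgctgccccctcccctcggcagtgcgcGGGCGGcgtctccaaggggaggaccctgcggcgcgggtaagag
Lamb1, chr12:31265043-31265342, plus strand: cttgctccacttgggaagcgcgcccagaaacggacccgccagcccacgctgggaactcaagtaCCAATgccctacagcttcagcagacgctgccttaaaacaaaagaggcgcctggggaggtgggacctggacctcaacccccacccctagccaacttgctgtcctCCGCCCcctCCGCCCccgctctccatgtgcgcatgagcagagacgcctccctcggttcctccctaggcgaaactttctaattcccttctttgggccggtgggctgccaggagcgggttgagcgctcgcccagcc
Sparc, chr11:55420031-55420330, minus strand: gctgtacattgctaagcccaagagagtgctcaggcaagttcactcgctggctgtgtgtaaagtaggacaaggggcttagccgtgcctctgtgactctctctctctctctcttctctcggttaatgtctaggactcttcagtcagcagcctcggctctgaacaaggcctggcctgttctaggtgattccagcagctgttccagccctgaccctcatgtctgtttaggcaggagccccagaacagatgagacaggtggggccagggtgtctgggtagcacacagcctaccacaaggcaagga

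A window was found for 7 of the 10 genes, and *Lama4*, *Lamc1* and *Nid2* are named only. Across all 32851 windows of this length, 37.4% held CCAAT, 35.7% held GGGCGG and 13.6% held TATAAA, on either strand. The *Col4a1* window held 1 CCAAT and 1 GC box, the *Col4a2* window 1 and 3, and the *Lamb1* window 1 and 2. The *Sparc* window held none of the 3 motifs. It also had the lowest GC content of these 4, 55.3% with 4 CG dinucleotides, beside 74% with 37 CG for *Col4a1* and a median of 52.7% with 7 CG over all windows. A match is a description of the letters and not evidence of a binding site.

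The NOD library held 52790319 UMIs and the CD1 library 56483149, and 6500.0 NOD and 7014 CD1 barcodes had at least 500 UMIs and 300 genes, of which 18 barcode sequences occurred in both libraries. A barcode entered a class when it met only 1 of 8 marker gates and, for the 3 stromal classes, held no UMI of the leukocyte gene *Ptprc*. This left 854 NOD and 2505 CD1 endothelial cells, 43 and 20 fibroblasts, and 14 and 16 mural cells. Their median depths were 5155.5 and 6368 UMIs in endothelial cells, 10162 and 1596 in fibroblasts, and 3434.5 and 1886 in mural cells. The level of a gene is its UMIs over all cells of a class, scaled to 1000000 UMIs in the class (CPM), and ratios are log2 of NOD over CD1. Because these are counts of 3′ tags, levels are compared between strains and cell types and not between genes.

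The endothelial cells carried the markers of their name, and the markers of fibroblasts and mural cells are given with those classes below. All 8 further endothelial markers, such as *Kdr* and *Cldn5*, were counted in endothelial cells of both libraries, with a summed level of 11179 CPM in NOD and 13335 CPM in CD1. In the same cells 8 leukocyte markers summed to 79.1 and 23.8 CPM, 8 fibroblast markers to 448 and 194 CPM, 8 mural markers to 51.3 and 91.7 CPM, and 8 epithelial markers to 17.2 and 39.5 CPM. Of the mural markers 5 of 8 were at 0 in NOD endothelial cells and none in CD1, and *Ptprc* was at 0 in both through the gate. Single genes carried 3 of these sums: *Fbln2* gave 444 and 191 CPM of the fibroblast sum, with the other 7 at 1.43 CPM or less each, *Mcam* 47.2 and 85.3 CPM of the mural sum, and *Klk1* 14.7 and 36.4 CPM of the epithelial sum. Of the leukocyte markers above 0, all but *Csf1r* (1.24 and 3.09 CPM) were higher in NOD, led by *Cd52* (40.0 and 8.30 CPM). The part of these transcripts in the results was not tested.

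The 10 genes were counted mainly in cells of the vessel wall and in fibroblasts in both strains. Their summed level was 5695 CPM (5628 to 5763) in NOD and 7681 CPM (7639.9 to 7722) in CD1 endothelial cells, 6580.4 and 5057 CPM in fibroblasts, and 7903 and 2979 CPM in mural cells. T and NK cells held 63.7 and 34.3 CPM, macrophages 48.3 and 63.4 CPM, and the few epithelial cells 136 and 78.1 CPM. The B cells, 350 in NOD and 8 in CD1, held 93.9 and 81.4 CPM. With each cell thinned to 1000 UMIs, 97.8% of the 816 NOD and 98.9% of the 2422 CD1 endothelial cells held at least 1 UMI of the 10 genes. The same share was 5.02% of 1914 NOD and 2.14% of 187 CD1 T and NK cells. It is given for comparison and not as a noise level, because before thinning most of these UMIs in NOD were of *Lamc1*. Droplets without a cell, taken as barcodes with 10 to 100 UMIs, held the 10 genes at 486 CPM in NOD and 1728 CPM in CD1. The free RNA of the CD1 library was thus richer in these genes, in the direction of the endothelial cells themselves.

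**Figure D1:**
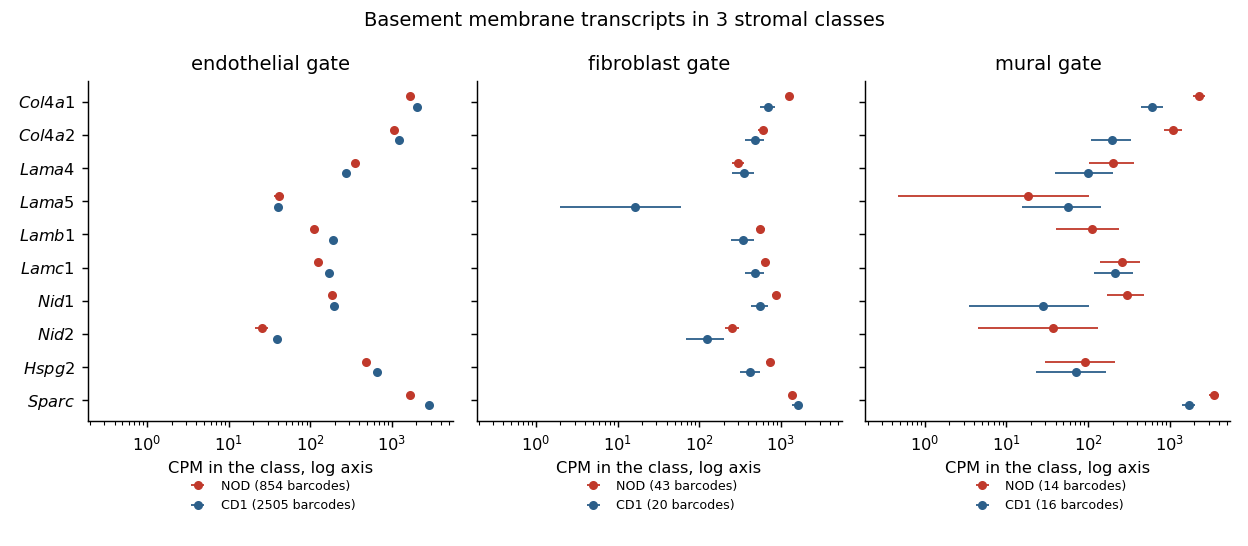
Level of each basement membrane gene, in CPM on a log axis, in endothelial cells, fibroblasts and mural cells of the NOD (red) and the CD1 (blue) library, with 95% counting intervals and no point where 0 UMIs were counted. NOD lies left of CD1 for *Sparc* in endothelial cells (1661 and 2865 CPM) and right of it for *Col4a1* in fibroblasts (1261 and 691 CPM) and mural cells (2295 and 610.03 CPM).

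*Lamc1*, the laminin γ1 chain found in most laminin trimers, was the member least restricted to stroma. It reached 49.1 CPM (45.3 to 53.1) in NOD and 10.5 CPM (6.03 to 17.1) in CD1 T and NK cells, and 23.3 and 23.1 CPM in macrophages. In B cells it stood at 71.8 CPM (60.1 to 85.0) in NOD and 67.9 CPM (22.0 to 158) in CD1, the latter on 8 cells. *Lamc1* made up 631 of the 819 UMIs of the 10 genes in NOD T and NK cells. *Nid2* was counted in CD1 macrophages at 4.12 CPM (74 UMIs in 2147 cells) and at 0.298 CPM (1 UMI in 423 cells) in NOD macrophages. *Sparc* in macrophages stood at 19.4 CPM in NOD and 24.9 CPM in CD1.

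The order of the stromal classes differed between genes. *Lamb1*, *Lamc1*, *Nid1* and *Nid2* were higher in fibroblasts than in endothelial cells of the same library in both strains, by 5.00-, 5.09-, 4.67- and 10.0-fold in NOD and by 1.82-, 2.82-, 2.80- and 3.16-fold in CD1. *Col4a1*, *Col4a2* and *Sparc* were lower in fibroblasts than in endothelial cells in both strains (log2 ratio -0.39, -0.82 and -0.28 in NOD, -1.55, -1.37 and -0.84 in CD1). *Hspg2* was higher in fibroblasts than in endothelial cells in NOD (0.61, 0.43 to 0.78) and lower in CD1 (-0.64, -1.07 to -0.24). *Lama4* in fibroblasts could not be separated from its endothelial level in either strain, with intervals of -0.49 to 0.05 in NOD and -0.10 to 0.80 in CD1. *Lama5*, the laminin α5 chain of endothelial and epithelial basement membranes, had 201 UMIs in NOD and 707 in CD1 endothelial cells, and 0 and 2 UMIs in fibroblasts. The fibroblasts hold far fewer UMIs in all. In CD1 the levels were 16.4 CPM in fibroblasts and 40.5 CPM in endothelial cells, with an interval of -4.35 to 0.56 that held 0. In NOD the upper limit was -2.22. Mural cells had 1 *Lama5* UMI in NOD and 4 in CD1 (18.5 and 56.7 CPM).

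In endothelial cells, the comparison that led to the choice of these genes, the members did not shift by 1 common amount. The sum was lower in NOD by a log2 ratio of -0.43 (-0.45 to -0.41), and *Sparc* alone accounted for 8022 of the 27510 NOD and 50059 of the 134208 CD1 UMIs. Without *Sparc* the other 9 genes summed to 4034 CPM in NOD and 4816 CPM in CD1 (-0.26, -0.28 to -0.23). At a cut of 1.5-fold, 3 of the 10 genes (*Sparc*, *Lamb1* and *Nid2*) were lower in NOD, where 7.9% of the 11846 genes with at least 50 UMIs were, and 0 were higher, where 10.7% of all genes were. Below 0 were 8 of the 10 genes and 46% of all genes. The median log2 ratio was -0.36 over the 10 genes and 0.04 over all genes, whose quartiles were -0.24 and 0.31. Because these values chose the genes, nothing is read from the difference.

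**Figure D2:**
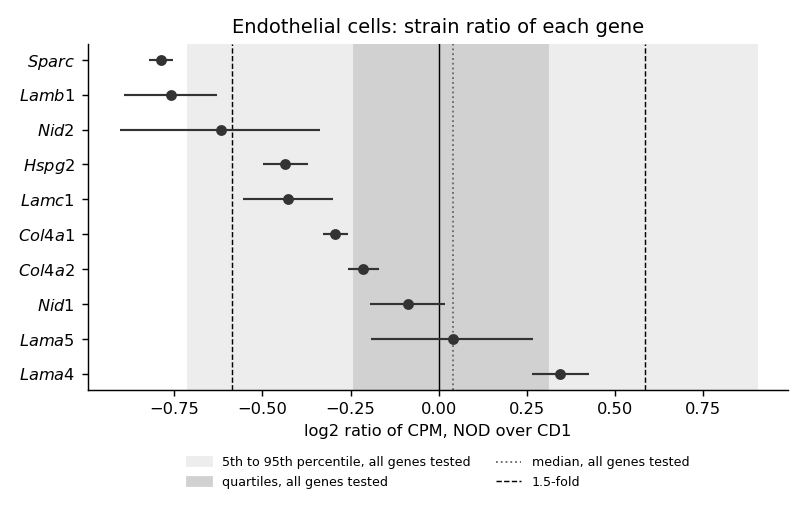
Log2 ratio of NOD over CD1 for each basement membrane gene in endothelial cells with 95% counting intervals (bars), over the quartiles (dark band) and the 5th to 95th percentile (light band) of all 11846 genes. *Sparc* and *Lamb1* sit lowest, at -0.79 and -0.76, and *Lama4* is the member farthest above 0, at 0.35.

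The network collagen chains were lower in NOD by similar amounts. *Col4a1* was counted at 1649 CPM (1613 to 1686) in NOD and 2020.3 CPM (1999 to 2041) in CD1 (log2 ratio -0.29, -0.33 to -0.26). *Col4a2* stood at 1063 CPM (1034 to 1092) in NOD and 1233 CPM (1216 to 1249) in CD1 (-0.21, -0.26 to -0.17). Neither reached 1.5-fold. The number of *Col4a1* UMIs for each *Col4a2* UMI was 1.55 in NOD and 1.64 in CD1, so the balance of the pair moved by -0.08 (-0.14 to -0.02) on the log2 scale, less than either gene.

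The laminin chains went different ways. *Lama4*, the α4 chain of a laminin of vessel walls, was higher in NOD, at 349 CPM (332 to 366) against 275 CPM (267 to 282), a log2 ratio of 0.35 (0.26 to 0.43). *Lama5*, the α5 chain, stood at 41.6 CPM in NOD and 40.5 CPM in CD1, and its interval of -0.19 to 0.27 held 0. The β1 chain that joins either α chain in a trimer, *Lamb1*, was 1.69-fold lower in NOD, at 112 CPM (103 to 122) against 189.7 CPM (183 to 196). The γ1 chain *Lamc1* was lower by a log2 ratio of -0.43 (-0.55 to -0.30), at 126 CPM in NOD and 169 CPM in CD1. The *Lama4* UMIs for each *Lamb1* UMI were therefore 3.11 in NOD and 1.45 in CD1, a difference of 1.11 (0.95 to 1.26) on the log2 scale. The α4 and β1 chains thus differed between the strains in opposite directions. This does not hold for every β chain: *Lamb2*, the β2 chain, was higher in NOD like *Lama4*, at 105 against 75.4 CPM (0.48, 0.33 to 0.63). *Lamc1* UMIs for each *Lamb1* UMI were 1.12 in NOD and 0.890 in CD1.

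Of the linkers, nidogen-1 (*Nid1*) was nearly level, at 185 CPM in NOD and 196 CPM in CD1 (-0.09, -0.20 to 0.02). Its paralogue *Nid2* was 1.53-fold lower in NOD, at 25.5 CPM (21.2 to 30.4) against 39.0 CPM (36.2 to 42.1), on 123 and 682 UMIs, and its interval of -0.91 to -0.34 reached across the 1.5-fold line. Of the members past that line *Nid2* was the nearest to it, and the nearest of those that fell short were *Hspg2* and *Lamc1*, both at -0.43. *Hspg2*, which encodes the core protein of perlecan, stood at 484 CPM (464 to 504) in NOD and 654 CPM (642 to 666) in CD1 (-0.43, -0.50 to -0.37).

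*Sparc* had the largest difference of the 10 genes in these cells. It was counted at 1661 CPM (1625 to 1697) in NOD and 2865 CPM (2839.9 to 2890.2) in CD1, a 1.73-fold lower level and a log2 ratio of -0.79 (-0.82 to -0.75). After thinning to 1000 UMIs, 71.1% of NOD and 85.9% of CD1 endothelial cells held a *Sparc* UMI, whereas 0.261% of NOD and 0% of CD1 T and NK cells did. The share of cells with *Lamb1* was 9.31% in NOD and 15.4% in CD1, that with *Lama4* 25.7% and 22.1%, and that with *Col4a1* 74.4% and 77.0%. The order of the strains in these shares was the order in the levels.

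The difference was spread over the endothelial cells and not carried by a few barcodes. The 10 genes made up a median of 0.546% of the UMIs of a NOD endothelial cell (quartiles 0.385% and 0.691%) and 0.707% of a CD1 cell (0.510% and 0.897%). The NOD value was lower at the tenth percentile (0.250% against 0.330%) and at the ninetieth (0.812% against 1.08%). None of the 10 genes was counted in 16 NOD and 10 CD1 cells. Cells of 1 library are not replicates, and these values describe the 2 libraries.

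**Figure D3:**
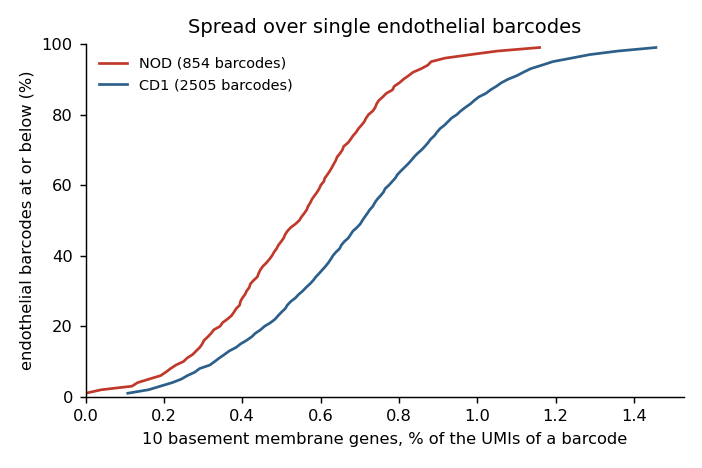
Cumulative share of endothelial cells (vertical axis, percent) at or below a given share of UMIs from the 10 basement membrane genes (horizontal axis, percent). The NOD curve lies to the left of the CD1 curve at the quartiles and the median, 0.546% in NOD and 0.707% in CD1.

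Most endothelial cells of both libraries were capillary or arterial. Capillary cells (*Plvap* and *Rgcc*) were 71.7% of the NOD and 70.4% of the CD1 endothelial cells (612 and 1763), and arterial cells (*Gja5*, *Gja4* and *Sema3g*) 19.1% and 23.1% (163 and 579). Venous cells (*Ackr1* and *Selp*) were 1.99% and 0.519% (17 and 13), and there were 1 and 4 lymphatic cells. The summed level was lower in NOD in capillary cells, at 6054 against 8080.4 CPM (-0.42), and in arterial cells, at 5108 against 6979 CPM (-0.45). In the venous cells it stood at 3356 and 3625 CPM, with an interval of -0.32 to 0.10. With the CD1 types weighted to the NOD mix, the ratio over all endothelial cells was -0.42, beside -0.43 as counted.

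*Sparc* was lower in NOD in each vessel type with more than 10 cells in both libraries: 1725 against 3001 CPM in capillary (-0.80), 1656 against 2659 CPM in arterial (-0.68) and 851 against 1525 CPM in venous cells (-0.84). *Lamb1* was lower in capillary (119.8 against 202 CPM) and arterial cells (93.7 against 165 CPM). The higher *Lama4* of NOD was seen in capillary cells, at 370.2 against 269 CPM (0.46, 0.36 to 0.55). In arterial cells *Lama4* stood at 309 and 289 CPM, with an interval of -0.07 to 0.27. *Col4a1* in the 17 NOD and 13 CD1 venous cells stood at 997 and 656 CPM (0.60, 0.16 to 1.06), the opposite direction to capillary and arterial cells.

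**Figure D4:**
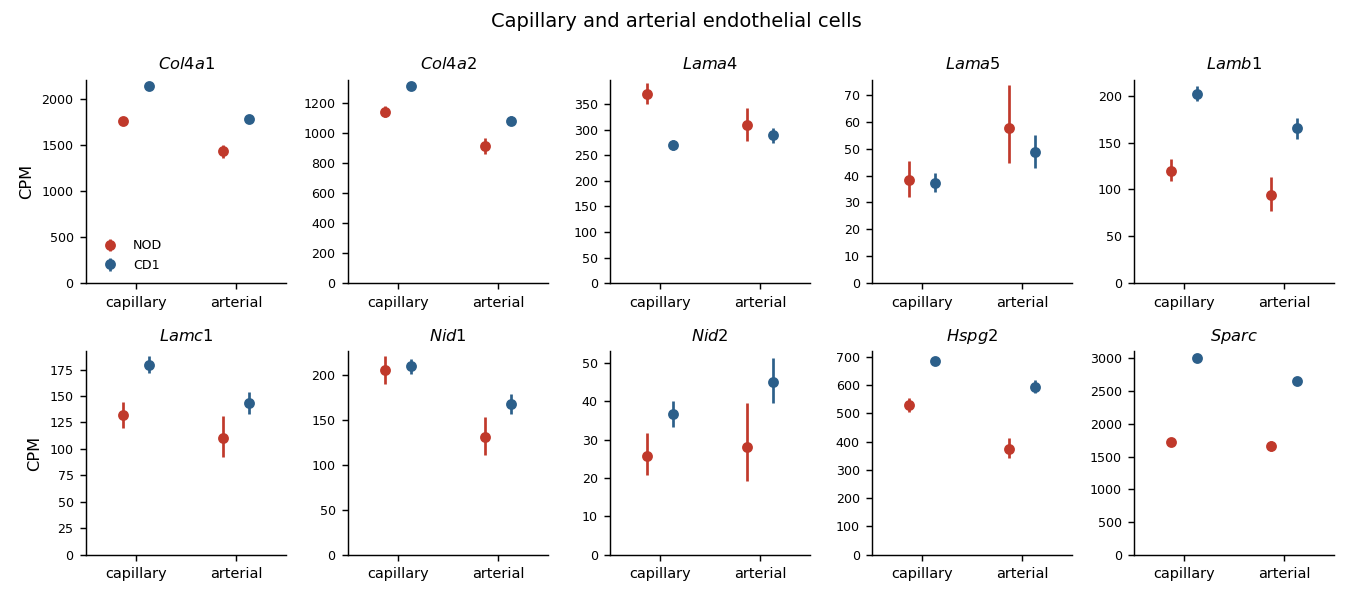
Level of each basement membrane gene in CPM, on an axis from 0 for each gene, in capillary and arterial endothelial cells of the NOD (red) and CD1 (blue) library, with 95% counting intervals. *Sparc* is lower in NOD in both vessel types (1725 against 3001 and 1656 against 2659 CPM), while the *Lama4* intervals of the strains are apart in capillary cells and overlap in arterial cells.

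Within a library, arterial cells carried less of the sum than capillary cells, by a log2 ratio of -0.25 in NOD and -0.21 in CD1. *Lama5* was on the arterial side in both libraries, by 0.60 in NOD and 0.39 in CD1. *Nid2* was on the arterial side in CD1 (0.30, 0.07 to 0.54), while its NOD interval held 0 (0.12, -0.51 to 0.72). *Nid1* was on the capillary side, by -0.65 and -0.32, as were *Hspg2* (-0.50 and -0.21), *Col4a1* (-0.30 and -0.27) and *Col4a2* (-0.32 and -0.28). *Lama4* was on the capillary side in NOD (-0.26) and on the arterial side in CD1 (0.10).

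How endothelial cells were told from leukocytes mattered for the size of the difference. The NOD library held 1085 barcodes (56.0% of those with the endothelial markers) that were left out because they met a second gate or held *Ptprc*, and the CD1 library 452 (15.3%). Of the NOD barcodes with the endothelial markers, 503 also met the T and NK gate and 409 the B cell gate. The left-out NOD barcodes held *Cdh5*, an adhesion molecule of endothelial junctions, at 99.4 CPM and *Ptprc* at 1806 CPM, against 791 CPM *Cdh5* in the kept NOD cells. In the left-out CD1 barcodes *Cdh5* stood at 328 CPM and *Ptprc* at 871 CPM. The summed level of the 10 genes was 839 CPM in the left-out NOD and 3025 CPM in the left-out CD1 barcodes. When these barcodes were counted as endothelial, the ratio of the sum became -1.44 and all 10 genes were at least 1.5-fold lower in NOD, *Lama4* included (-0.68). With 5% of each cell's UMIs taken as free RNA and subtracted the ratio was -0.42, and without the 18 shared barcodes it was -0.44.

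In fibroblasts, which make most of the interstitial matrix of the gland, the sum was higher in NOD, by a log2 ratio of 0.38 (0.25 to 0.51). At the 1.5-fold cut, 5 of the 9 members with at least 50 UMIs were higher in NOD, where 29.7% of 2008 genes were, and 0 were lower, where 9.16% were. Below 0 were 2 of the 9 and 35.2% of all genes. The median log2 ratio of these 9 was 0.65 and that of all 2008 genes 0.22. *Col4a1* stood at 1261 CPM (1156 to 1374) in NOD and 691 CPM (551 to 855) in CD1 (0.87, 0.53 to 1.22), and *Hspg2* at 738 and 419 CPM (0.81, 0.38 to 1.27). *Nid2* stood at 255 and 123 CPM on 106 and 15 UMIs (1.05, 0.26 to 1.93). *Lamb1* stood at 559.8 and 345 CPM (0.70, 0.22 to 1.21), and *Nid1* at 862 and 551 CPM (0.65, 0.27 to 1.05). For these 5 genes the intervals lay above 0. *Nid2* and *Lamb1* (233 and 42 UMIs) reached the minimum of 50 UMIs mostly through NOD, where they were higher. The count of 5 is therefore a description of these libraries only.

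The other members differed less in fibroblasts. *Lamc1* stood at 639 CPM in NOD and 477 CPM in CD1 (0.42, 0.01 to 0.86) and *Col4a2* at 601 and 477 CPM (0.33, -0.08 to 0.77). *Lama4* stood at 300.3 and 354 CPM (-0.24, -0.75 to 0.30). *Sparc*, the member with the largest difference in endothelial cells, stood at 1365 CPM in NOD and 1603 CPM in CD1 fibroblasts (-0.23, -0.47 to 0.01). The intervals of *Col4a2*, *Lama4* and *Sparc* held 0.

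The fibroblast classes were of unequal depth and quality. Among the barcodes with the highest doublet scores were 8 of the 20 CD1 and 1 of the 43 NOD fibroblasts. The 20 CD1 fibroblasts held 121609 UMIs, of which the 4 deepest cells gave 53.4%, and their median mitochondrial share was 9.68%, while the 43 NOD fibroblasts held 416235 UMIs, with 17.9% from the 4 deepest and a mitochondrial share of 1.69%. The fibroblast markers summed to 8399 CPM in NOD and 9958 CPM in CD1 and the leukocyte markers to 50.5 and 123 CPM, and the part of depth and RNA quality in the fibroblast values was not tested. With at most 10% mitochondrial UMIs the ratio of the sum was 0.31, and with median-of-ratios scaling, which takes out a shift of 0.22 over the genes of these cells, 0.15. Relative to that shift *Col4a1*, *Nid2* and *Hspg2* were still at least 1.5-fold higher in NOD, while *Lamb1* and *Nid1* had ratios of 0.47 and 0.42.

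In mural cells, the contractile cells and pericytes around vessels, the sum was higher in NOD (1.41, 1.17 to 1.65), on 427 and 210 UMIs. *Col4a1* and *Col4a2* had 124 and 60 UMIs in NOD and 43 and 14 in CD1, so they reached the minimum of 50 UMIs mostly through NOD. The members with at least 50 UMIs were *Col4a1* (2295 CPM in NOD and 610.03 CPM in CD1, 1.91), *Col4a2* (1110.5 and 199 CPM, 2.48) and *Sparc* (3479 and 1702 CPM, 1.03). All 3 were at least 1.5-fold higher in NOD, as were 28% of 304 genes, while 49.7% of genes were at least 1.5-fold lower and 56.6% were below 0.

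The mural classes of the strains carried different markers. Of the 14 NOD mural cells, 13 held at least 2 UMIs of the pericyte genes *Abcc9* and *Kcnj8* and 0 held as many of *Myh11*, the heavy chain of smooth muscle myosin. Of the 16 CD1 mural cells, 4 held the pericyte genes and 8 held *Myh11*. *Acta2*, smooth muscle actin, stood at 222 CPM in NOD and 7789 CPM in CD1, and *Abcc9* at 2924 and 454 CPM. The 13 NOD and 4 CD1 cells with the pericyte genes held the 10 genes at 7993 CPM (7251 to 8789.9) and 3119 CPM (2526 to 3808). In CD1, 1 of these 4 cells also held *Myh11* and gave 19724 of their 30782 UMIs, and without it the other 3 held the 10 genes at 5245 CPM (3983 to 6780.5). Of the 14 NOD cells, 11 were among those with the highest doublet scores, and without the barcodes of highest score the ratio was 1.67 on 3 NOD and 15 CD1 cells. Fibroblast markers summed to 2702 CPM in NOD and 879.6 CPM in CD1 mural cells. Of these sums *Pdgfrb*, also a mural marker, gave 1666 and 567 CPM. *Col3a1* stood at 685 CPM in NOD (11 of 14 cells) and 85.1 CPM in CD1 (4 of 16). *Col1a1* stood at 92.5 and 0 CPM, *Col1a2* at 241 and 213 CPM, and *Fbln2* at 18.5 and 14.2 CPM. *Lum*, *Mfap5* and *Pi16* were at 0 in both. The part of fibroblast transcripts in the mural values was not tested. The median mitochondrial share was 1.65% in NOD and 5.83% in CD1 mural cells, its part was not tested, and the 4 deepest cells gave 53.8% and 67.5% of the UMIs. With each cell thinned to 1000 UMIs the ratio of the sum was 0.61 and that of *Sparc* -0.30, and with every barcode of the gate kept the sum was -0.15. Strain and kind of mural cell cannot be told apart in these values.

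**Figure D5:**
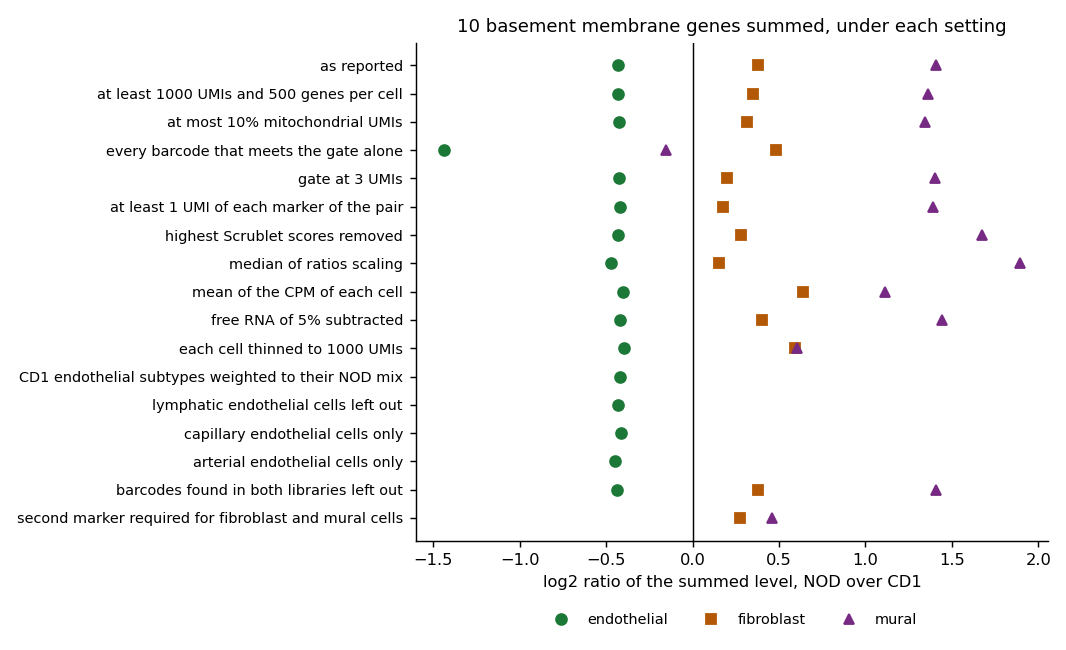
Log2 ratio of NOD over CD1 for the summed level of the 10 genes in endothelial cells, fibroblasts and mural cells under each setting of the analysis. The endothelial ratio lies below 0 in every setting shown (-1.44 to -0.40), the fibroblast ratio above 0 (0.15 to 0.64), and the mural ratio crosses 0 (-0.15 to 1.89).

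The wider basement membrane program in endothelial cells was described with 69 further genes. Of these, 46 had at least 50 UMIs, of which 6 were at least 1.5-fold lower in NOD, beside 7.9% of all genes, and 4 higher, beside 10.7%. Their median log2 ratio was -0.04, and both counts lie near the share over all genes. Among the 12 structural components counted, 3 were lower and 0 higher. They were *Col4a3* (35.6 CPM in NOD and 70.7 CPM in CD1, -0.99) and *Col4a4* (9.73 and 23.1 CPM, -1.25), which encode the α3 and α4 chains of a second type IV collagen, and *Vwa1* (53.8 and 93.4 CPM, -0.80), a perlecan-binding glycoprotein. *Col15a1*, a collagen of the outer face of the basement membrane, stood at 318 CPM in both strains. *Lama3* and *Lamb2*, other laminin chains, stood at 652 and 564 CPM (0.21) and at 105 and 75.4 CPM (0.48).

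Among 16 genes that hydroxylate, fold, export or cross-link collagen, 0 were lower and 1 was higher at 1.5-fold, *Loxl2*, on 23 and 52 UMIs (0.68, -0.10 to 1.41). The collagen chaperone *Serpinh1* stood at 228 CPM in NOD and 259.7 CPM in CD1 (-0.19). Of 10 receptors, *Itga2*, the α2 chain of a collagen-binding integrin, was lowest in NOD (9.52 and 35.8 CPM, -1.91, -2.38 to -1.48), and *Cd93*, an endothelial transmembrane receptor, was also lower (300.8 and 500.4 CPM, -0.73). The laminin-binding integrin chains *Itga3* and *Itgb4* were higher in NOD (23.0 and 13.4 CPM, 0.77, and 31.3 and 18.3 CPM, 0.77). The more abundant integrin chains *Itga6* (409 and 507 CPM, -0.31) and *Itgb1* (337 and 419 CPM, -0.32) were lower, short of 1.5-fold. Of the 10 receptors 7 were below 0 and 3 above, with a median of -0.31. Of 8 proteases and inhibitors, the protease *Adamts1* was lower (81.6 and 140.05 CPM, -0.78) and the inhibitor *Timp2* higher (17.6 and 9.90 CPM, 0.83).

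In fibroblasts 35 of the 69 further genes had at least 50 UMIs, of which 12 were at least 1.5-fold higher in NOD, beside 29.7% of all genes, and 7 lower, beside 9.16%, with a median log2 ratio of 0.22, beside 0.22 over all genes. Of the 8 proteases and inhibitors, 6 were higher at this cut. The membrane-bound protease *Mmp14* stood at 447 CPM in NOD and 156 CPM in CD1 (1.52), and *Col15a1* at 1466 and 781 CPM (0.91). Their intervals lay above 0 (0.83 to 2.28 and 0.59 to 1.24), as did those of *Smoc2*, a relative of *Sparc* (0.79, 0.38 to 1.22), *Mia3*, which takes part in collagen export (1.16, 0.16 to 2.35), and the protease *Adamts1* (0.81, 0.06 to 1.64). Below 0 lay the intervals of *Col4a3* (-1.19, -2.01 to -0.34), *Col4a5* (-0.90, -1.39 to -0.39), *Fbln1* (-0.65, -1.18 to -0.10), the protease inhibitor *Timp3* (-0.65, -1.21 to -0.07) and the receptor *Sdc2* (-0.79, -1.29 to -0.27). The intervals of *Col18a1* (1.06, -0.09 to 2.45), *Lamc3* (0.93, -0.04 to 2.05), *Bmp1* (0.81, -0.28 to 2.10), *Dag1* (-0.71, -1.47 to 0.09) and *Colgalt1* (1.22, -0.0017 to 2.74) held 0. NOD fibroblasts held 416235 UMIs and CD1 fibroblasts 121609, so genes high in NOD could reach the minimum of 50 UMIs mostly through NOD. This was so for *Col18a1*, *Bmp1* and *Colgalt1*, with 7, 8 and 6 UMIs in CD1. It was also so for *Mmp14*, *Mia3*, *Adamts1* and *Lamc3*, with 19, 9, 17 and 10 UMIs in CD1. Being listed as higher in NOD is therefore a description of these counts only. Of the 6 further genes with at least 50 UMIs in mural cells, *Sparcl1*, another relative of *Sparc*, had a ratio of -1.78, opposite to the 1.03 of *Sparc*, while the folding enzyme *Ppib* had 1.19 and the integrin chain *Itga1* 1.16.

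Across the 14 combinations of class and library with at least 50000 UMIs, the genes whose level followed the sum of the 10 genes most closely, out of 12454 genes, were *Ntf3*, *Osmr*, *Ebf3*, *Mpdz* and *Akap12*, with a Pearson r of 0.99 for *Ntf3* and 0.98 for the other 4. The likeness was taken on log2 of CPM with 10 added. The points share the 2 libraries and differ in depth, and the values only say that these genes were counted in the same stromal classes.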

How the data were processed

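Single cells of NOD/ShiLtJ and CD1 glands were profiled with 10x Genomics kits, 1 library per strain. Per the file headers, the authors deposited the raw output of Cell Ranger 8.0.0, a UMI count for every pair of gene and barcode, before any choice of cells or scaling. The submitters' processing notes name Seurat 5.0.1, R 4.3.1 and build GRCm39. The promoter windows come from RefSeq on GRCm38.p6 and were matched by gene symbol, so their coordinates are not those of the alignment.

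Barcodes with at least 500 UMIs and 300 genes were kept, 6500.0 of 1298073 in NOD and 7014 of 1331542 in CD1. Gates asked for at least 2 UMIs of the markers: endothelial *Pecam1* and *Cdh5*, fibroblast *Pdgfra* and *Dcn*, mural *Rgs5* and *Notch3*, with further gates for T and NK cells, B cells, macrophages, epithelial cells and basal or myoepithelial cells. Barcodes in more than 1 gate were left out, as were stromal barcodes with *Ptprc*. Doublets were otherwise kept, and as an alternative the highest Scrublet scores (scanpy 1.11.5; 0.8% per 1000 barcodes, 338 in NOD and 394 in CD1) were removed.

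Levels have exact Poisson intervals, log2 ratios conditional binomial intervals, and shares of cells were taken after thinning to 1000 UMIs. Differences between ratios of gene pairs have intervals by a normal approximation. No test was run and no p-value is given, and a gene counts as higher or lower at 1.5-fold among genes with at least 50 UMIs in the class over both libraries. All 10 members are named, as are the further basement membrane genes past 1.5-fold, at most the 15 with the largest ratios in a class. Endothelial *Col15a1*, *Lama3*, *Lamb2*, *Serpinh1*, *Itga6* and *Itgb1* were named beside these after their values were seen. The members and lists were chosen with earlier results of these data known.

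The steps were tested on simulated data. Alternatives changed the cell minimum, the mitochondrial limit, the gates, doublets, scaling, the weight of each cell, free RNA and depth. Python 3.11.15, numpy 2.4.6, scipy 1.17.1, pandas 2.3.3 and matplotlib 3.10.9 were used.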

Additional observations from a re-analysis of the deposited data

Results flagged for a closer look

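The strain difference had opposite signs in different cell types of the same libraries, which is what brought these values here. The endothelial direction of the sum was known when the genes were chosen, so nothing is read from its contrast with the other classes. The difference between cell types was not tested, since each cell type of a strain comes from 1 library.

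Between endothelial cells and fibroblasts, the log2 ratio of NOD over CD1 was -0.43 against 0.38 for the sum of the 10 genes, -0.29 against 0.87 for *Col4a1*, -0.76 against 0.70 for *Lamb1*, and -0.43 against 0.42 for *Lamc1*. It was -0.62 against 1.05 for *Nid2* and -0.43 against 0.81 for *Hspg2*. Between endothelial and mural cells it was -0.43 against 1.41 for the sum, -0.29 against 1.91 for *Col4a1*, -0.21 against 2.48 for *Col4a2* and -0.79 against 1.03 for *Sparc*. The intervals for counting error lay on opposite sides of 0 in each case, that of *Lamc1* in fibroblasts with a lower limit of 0.01. The median log2 ratio over all genes of the fibroblasts was 0.22, which these values hold. Median depth moved with these signs: it was higher in NOD than in CD1 in fibroblasts (10162 and 1596 UMIs) and mural cells (3434.5 and 1886 UMIs) and lower in endothelial cells (5155.5 and 6368 UMIs), and its part was not tested beyond thinning. With each cell thinned to 1000 UMIs the sum had ratios of -0.40, 0.60 and 0.61 in endothelial cells, fibroblasts and mural cells, while *Sparc* in mural cells went to -0.30.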

How the results depend on the processing

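The summed endothelial ratio stayed below 0 under 15 alternatives, from -1.44 to -0.40. It moved beyond its counting interval with every barcode that met the gate alone (-1.44, with 10 of 10 genes at least 1.5-fold lower and *Lama4* turned to -0.68), median-of-ratios scaling (-0.47), the mean CPM of each cell (-0.40), thinning to 1000 UMIs (-0.40) and arterial cells alone (-0.45), the last added after the values were seen. *Sparc* and *Lamb1* were at least 1.5-fold lower in 15 of 15 alternatives (-1.78 to -0.68 and -1.75 to -0.74) and *Nid2* in 12. The fibroblast sum stayed above 0 under 12 alternatives and moved with a gate at 3 UMIs (0.20), each marker required (0.18), median-of-ratios scaling (0.15), the mean of cells (0.64) and thinning (0.60). The mural sum reversed with the gate alone (-0.15) and moved with doublet scores removed (1.67), median-of-ratios scaling (1.89), the mean of cells (1.11), thinning (0.61) and, added after the values were seen, a second marker required (0.46, on 12 NOD and 3 CD1 cells). Mural *Col4a2* reversed with the gate alone (-0.29) and mural *Sparc* with the gate alone (-0.22), thinning (-0.30) and the second marker (-0.10). The cause of these changes was not tested. Of the other values for single genes, 43 moved beyond their counting interval with no called change of sign, and the rest stayed within it. Depth limits the fibroblast and mural values, which rest on 20 CD1 fibroblasts and 14 NOD mural cells. No paired analysis was possible because each strain has 1 library. Leaving out a replicate was not possible for the same reason.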
